A study of Mus musculus with 6 samples.

Results

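The mitosis and spindle checkpoint genes described here are 49 genes that a dividing cell needs from entry into mitosis to the separation of its daughters. They were chosen by name, for the function of their proteins: G2/M cyclins and kinases, checkpoint proteins, kinetochore and condensin subunits, cytokinesis proteins and genes mutated in microcephaly, with kinesins left out. All 49 were present in the deposited table of 17348 genes, and all 49 were among the 13340 genes with enough reads to test. They lie on 15 chromosomes.

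The libraries were made from the cortex of mouse embryos at E13.5, early in cortical neurogenesis. There were 3 libraries from WT embryos and 3 from cKO littermates. The cKO embryos carried Nestin-Cre and the floxed allele on both copies of Ybx1 (Nestin-Cre, Ybx1 fl/fl), on a line made in C57BL/6J eggs, and no group received a treatment. The methods call the controls of this experiment wild type, whereas elsewhere the study uses Ybx1 fl/fl embryos without Cre as controls, so which of these the WT label covers is not given, and no control library carrying Nestin-Cre alone was analysed here. Nestin-Cre acts in neural progenitors and is inherited by the neurons they make, so cells of other lineages in the dissected cortex keep Ybx1. How many embryos went into a library is not given in the sources used here, and p-values measure the spread between these libraries. The comparison of cKO with WT asks whether transcripts of the mitotic machinery change when Ybx1, an RNA-binding protein of the cold shock family that recognises m5C-modified mRNA, is lost from the progenitors.

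In the ventricular zone, radial glia divide at the apical surface, and intermediate progenitors divide further from it. Entry into mitosis is driven by Cdk1 bound to cyclin B. The chromosomes are then compacted by condensin and attached to the spindle through kinetochores, while the spindle assembly checkpoint holds back the anaphase-promoting complex until every kinetochore is attached. Cyclin B and securin are then destroyed, separase opens the cohesin rings, and the central spindle and the actomyosin ring divide the cell. Transcripts of most of these genes are low in G1 and peak in G2 and M, under the control of the MuvB complex with B-Myb and FoxM1 and of the CCAAT-binding factor NF-Y. In a bulk sample, fewer dividing cells and less transcript per dividing cell cannot be told apart.

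The 6 stretches of promoter below are shown to compare genes with and without the short elements known from G2/M promoters, CCAAT and the cell cycle genes homology region (TTTGAA or TTTAAA). Each runs over the 100 bases before the RefSeq start site on GRCm38.p6, 5′ to 3′ on the gene's strand, with capitals on every match to these elements. Matches on the opposite strand are marked too, where CCAAT appears as ATTGG. The element TTTGAA appears there as TTCAAA.
Top2a, topoisomerase II alpha, chr11:99024190-99024289, minus strand: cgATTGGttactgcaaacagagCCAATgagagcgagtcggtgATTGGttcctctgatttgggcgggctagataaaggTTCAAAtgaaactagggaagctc
Cdk1, the mitotic kinase, chr10:69352913-69353012, minus strand: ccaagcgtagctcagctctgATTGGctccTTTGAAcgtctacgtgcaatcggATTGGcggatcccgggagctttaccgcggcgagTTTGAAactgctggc
Ccnb1, cyclin B1, chr13:100786487-100786586, minus strand: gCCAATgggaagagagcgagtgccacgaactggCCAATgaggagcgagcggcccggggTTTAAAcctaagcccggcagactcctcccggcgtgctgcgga
Ube2c, the ubiquitin-conjugating enzyme of the anaphase-promoting complex, chr2:164769829-164769928, plus strand: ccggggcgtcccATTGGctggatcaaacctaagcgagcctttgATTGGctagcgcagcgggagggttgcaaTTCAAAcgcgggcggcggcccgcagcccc
Plk1, Polo-like kinase 1, chr7:122159335-122159434, plus strand: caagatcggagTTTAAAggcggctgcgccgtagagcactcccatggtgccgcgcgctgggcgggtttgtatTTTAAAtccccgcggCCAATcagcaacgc
Pttg1, securin, chr11:43425982-43426081, minus strand: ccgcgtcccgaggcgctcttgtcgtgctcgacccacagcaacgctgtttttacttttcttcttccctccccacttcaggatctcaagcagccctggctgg

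Top2a holds 3 CCAAT matches in this stretch, and Cdk1, Ccnb1 and Ube2c hold 2 each. Pttg1 holds no match to either element in its stretch. The 100-base stretches of Nusap1, Plk4, Bub1b, Mybl2 and Birc5 held none either. The log2 differences of these 6 genes ran from -0.22 (Nusap1) to 0.31 (Pttg1). The stretches of Pttg1 and Mybl2 lie inside their RefSeq gene spans (chr11:43420244-43427463 and chr2:163054327-163084688). For both genes the bases before the outer end of the gene were therefore not read. In the wider window, from 250 bases before to 50 bases after the start site, Bub1b held both elements. Plk4 and Birc5 held TTTGAA or TTTAAA there, and Pttg1, Nusap1 and Mybl2 held neither element. The RefSeq promoter table held 42 of the 49 genes. Ccna2, Cdc25c, Aurkb, Incenp, Smc4, Tpx2 and Foxm1 were not in it. Where a gene had several promoters, a match in any of them counted. Over the whole window, from 250 bases before to 50 bases after the start site, CCAAT was present in 30 of the 42 (71.4%, exact 95% interval 55.4 to 84.3%). The share was 43.5% of the 10636 tested genes with a promoter and 41.1% of all 27025 genes with a promoter. TTTGAA was present in 28 of the 42 (66.7%), against 14.2% of the tested genes and 20.2% of all genes with a promoter. TTTAAA was present in 10 (23.8%), against 11% and 14.9%. At least 1 of TTTGAA and TTTAAA was present in 32 (76.2%), against 22.4% and 30.6%. When only the 250 bases before the start site were read, CCAAT stood at 71.4% of the 42 (tested genes 41.1%), TTTGAA at 33.3% (tested genes 12.8%) and at least 1 of TTTGAA and TTTAAA at 50% (tested genes 20.7%). The matches are letters in these windows, and the libraries hold no measurement of binding at them.

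The targeted gene was checked first. Ybx1 (chr4:119277327-119296265) stood at 1021, 528 and 1220 CPM (read counts scaled to library size, with TMM factors) in WT 1, WT 2 and WT 3, and at 83.1, 117 and 147 CPM in cKO 1, cKO 2 and cKO 3. The genotypes did not overlap for Ybx1, and the cKO mean was 12.5% of the WT mean. The log2 fold change was -3.00 (SE 0.33), with an adjusted p of 0.128 by edgeR over all 13340 genes. The adjusted p of Ybx1 ran from 5.46e-10 (DESeq2) to 0.953 (edgeR without cKO 2) over the alternatives, with a log2 fold change of -3.49 to -2.75. It passed 0.05 by DESeq2, with GC correction (0.037), with the replicate number as a block (0.038) and with both of these adjustments (0.0056). It also passed without WT 2 (log2 fold change -3.28, adjusted p 0.021 by edgeR) and without both WT 2 and cKO 3 (-3.49, 0.019). WT 2 was the lowest of the WT libraries for Ybx1. The 6 libraries held 15907486 to 16282921 estimated counts and 15677 to 16296 genes detected, so a count of 3, the upper limit that a count of 0 allows, corresponds to 0.181 to 0.188 CPM. Such limits cover counting error only, whereas the intervals of the fold changes also take in the spread between libraries. The library cKO 3 stood apart by genes of skin and mesenchyme: 12 epidermis genes summed to 346 CPM there and to 4.69 to 6.63 CPM in the other 5 libraries, with Krt5 at 2153 counts in cKO 3 and at most 1 elsewhere. Likewise 13 meningeal and mesenchymal genes summed to 684 CPM in cKO 3 and to 52.2 to 91.4 CPM elsewhere, with Col3a1 at 2995 counts against at most 72. The counts and medians of the mitotic genes are therefore also given without cKO 3 and without WT 2.

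None of the 49 mitotic genes passed the test for a difference between cKO and WT. By edgeR's quasi-likelihood test, 0 of 49 had an adjusted p under 0.05 (0% of all 13340 tested genes did, and DESeq2 called 2 lower and 2 higher among all genes), and 0 of 49 had an unadjusted p under 0.05. Among all tested genes, 1.81% reached an unadjusted p under 0.05 on the lower side and 1.75% on the higher side. DESeq2, limma-voom and limma on log2(TPM + 1) also gave 0 members at either threshold. Fits without cKO 1 or cKO 2 gave 1 and 3 members at an unadjusted p under 0.05, as described with the fits that leave out libraries. With the replicate number as a block, 8 members were lower at that threshold by edgeR (16.3% of the 49 against 4.60% of all genes). With this block and a correction for GC content, 5 were (10.2% against 5.38%). None of these passed an adjusted p of 0.05. The lowest unadjusted p of the 49 was 0.174, for Cdk5rap2. In no gene of the 49 did the genotypes separate. Among all genes, 4.83% had every cKO library below every WT library and 4.21% had every cKO library above. In 41 of the 49, against 20.0% of all genes, WT 1 and cKO 1 were the 2 lowest libraries. The genotypes cannot separate in such genes, so the comparison of these shares says little about genotype. The log2 fold change was negative in 38 of the 49 and positive in 11, against 49.2% negative among all genes. The median was -0.06 (all genes 0.0019), from -0.30 for Cenpf to 0.31 for Pttg1, and 47 of the 49 estimates lay within 1.2-fold. How many were negative depended on which libraries were fitted, as given with the plot of the alternatives.

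The intervals bound what these libraries could have missed. The 95% interval of the fold change lay inside a 2-fold change in either direction for all 49 genes, and inside 1.5-fold for 42. The median SE was 0.15 on the log2 scale, against 0.11 over all tested genes. Members varied more among libraries of the same genotype than most genes did: their median within-genotype SD was 0.24 on the log2 scale, against 0.14. The members held 67 counts (Pttg1) to 17935 counts (Mki67) per library.

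**Figure D1:**
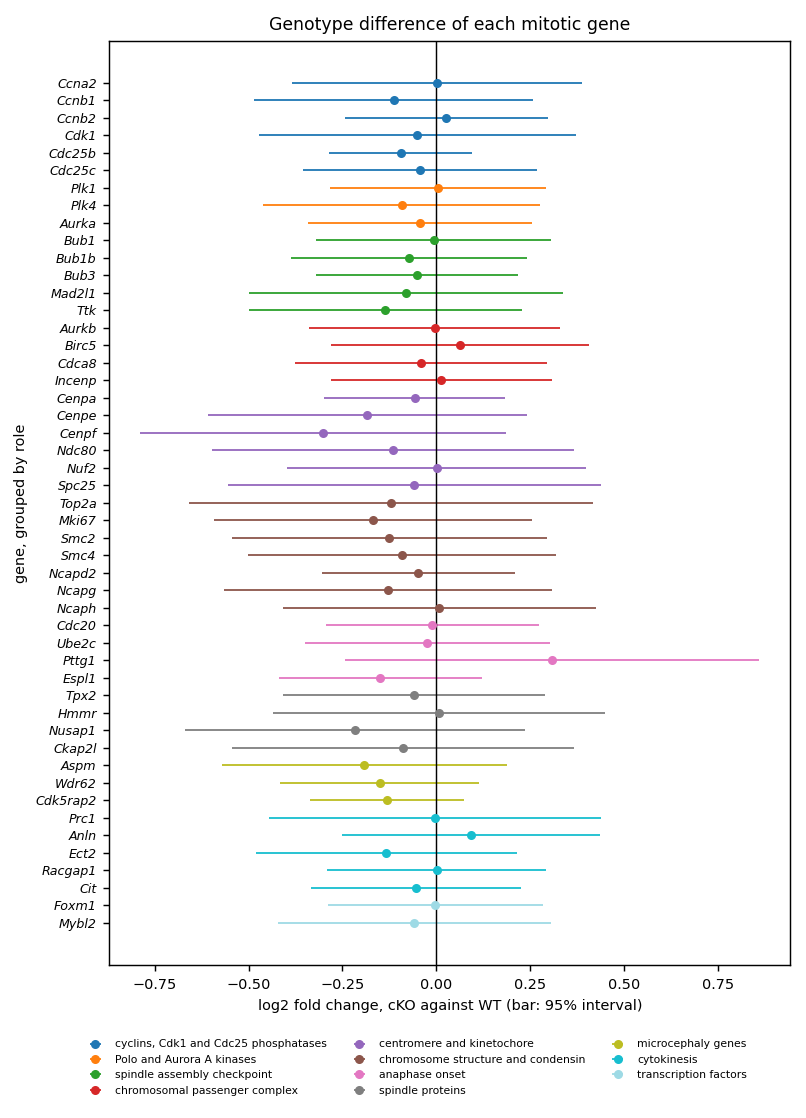
Log2 fold change of cKO against WT for each of the 49 genes (point) with its 95% interval from the edgeR fit (bar), 3 libraries per genotype, coloured by role. Every interval includes 0, and the estimates run from -0.30 for Cenpf to 0.31 for Pttg1.

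Among the 6 cyclins, Cdk1 and Cdc25 phosphatases, which switch on mitotic entry, 4 had negative and 2 positive log2 fold changes, with a median of -0.05. Ccnb1, whose protein activates Cdk1, stood at 165, 211 and 197 CPM in WT 1, 2 and 3 and at 137, 212 and 181 CPM in cKO 1, 2 and 3. Cdk1 stood at 75.6, 116 and 107 CPM in WT and at 75.8, 110 and 102 CPM in cKO. In both genes the replicate 1 library was the lowest of its genotype, and the ranges of WT and cKO overlapped. Their log2 fold changes were -0.11 (SE 0.16, 95% interval -0.48 to 0.26) and -0.05 (SE 0.18, 95% interval -0.47 to 0.37). Ccna2, cyclin A2, had the highest transcript level of the group, at a mean of 202 TPM. Its CPM were 246, 324 and 324 in WT and 233, 355 and 307 in cKO, with a log2 fold change of 0.0014 (SE 0.17). The range over the group was from -0.11 to 0.03.

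Of the 3 Polo and Aurora A kinases, 2 were negative and 1 positive, with a median of -0.04. Plk1, which acts from centrosome maturation to cytokinesis, stood at 98.2, 96.7 and 104 CPM in WT and at 83.1, 120 and 97.6 CPM in cKO. The WT libraries of Plk1 lay close together, and the cKO libraries lay on both sides of them. The log2 fold change was 0.0051 (SE 0.12, 95% interval -0.28 to 0.29). Plk4, which starts centriole duplication, stood at 57.6, 80.9 and 78.4 CPM in WT and at 55.4, 77.9 and 70.2 CPM in cKO, with a log2 fold change of -0.09 (SE 0.16). For Plk4 the 2 lowest libraries were again WT 1 and cKO 1.

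The 5 spindle assembly checkpoint genes were all negative, with a median of -0.07 and a range of -0.14 to -0.0075, and none passed the test. Bub1b, which encodes the checkpoint protein BubR1, stood at 158, 187 and 179 CPM in WT and at 134, 196 and 168 CPM in cKO. Its log2 fold change was -0.07 (SE 0.14, 95% interval -0.39 to 0.24). Bub3, its partner at kinetochores, was the most abundant per length of the group at a mean of 163 TPM. Bub3 stood at 124, 153 and 149 CPM in WT and at 118, 152 and 140 CPM in cKO (log2 fold change -0.05, SE 0.12). Ttk, the Mps1 kinase that starts the checkpoint signal, stood at 50.9, 70 and 64.9 CPM in WT and at 45.2, 65.0 and 58.8 CPM in cKO (log2 fold change -0.14, SE 0.16). In these 3 genes cKO 1 was the lowest library, WT 1 came next, and WT 2 or cKO 2 was the highest.

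The chromosomal passenger complex, which corrects wrong attachments, was split: 2 of its 4 genes were negative and 2 positive, with a median of 0.0047. Birc5, the survivin subunit, stood at 66.1, 89.2 and 79.3 CPM in WT and at 65.5, 91.2 and 88.3 CPM in cKO. The log2 fold change of Birc5 was 0.06 (SE 0.15, 95% interval -0.28 to 0.41), and its libraries overlapped fully.

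Of the 6 centromere and kinetochore genes, 5 were negative, with a median of -0.09. Cenpf, a large protein of the outer kinetochore, had the most negative estimate of all 49 genes. It stood at 241, 361 and 332 CPM in WT and at 182, 309 and 268 CPM in cKO. cKO 1 was the lowest library and WT 2 the highest, and both cKO 2 and cKO 3 lay above WT 1. The log2 fold change was -0.30 (SE 0.21, 95% interval -0.79 to 0.19), with an unadjusted p of 0.192 and an adjusted p of 0.99995 by edgeR. Spc25, a subunit of the Ndc80 complex that grips microtubules, stood at 61.3, 98.4 and 89.1 CPM in WT and at 58.2, 95.7 and 84.9 CPM in cKO (log2 fold change -0.06, SE 0.22). WT 1 held 65.4% of the mean of WT 2 and WT 3 for Spc25, the lowest such share among the 49 genes.

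Among the 7 genes of chromosome structure and condensin, 6 were negative, with a median of -0.12. Top2a, which untangles sister chromatids, stood at 555, 870 and 786 CPM in WT and at 466, 829 and 739 CPM in cKO. Mki67, the Ki-67 antigen that coats mitotic chromosomes and marks cycling cells, stood at 882, 1104 and 1079 CPM in WT and at 669, 1125 and 930 CPM in cKO. In both genes the difference between the replicate 1 libraries and the others was larger than that between genotype means. The log2 fold change was -0.12 (SE 0.23, 95% interval -0.66 to 0.42) for Top2a and -0.17 (SE 0.18, 95% interval -0.59 to 0.25) for Mki67. The 5 condensin subunits of the list, Smc2, Smc4, Ncapd2, Ncapg and Ncaph, ranged from -0.13 for Ncapg to 0.0074 for Ncaph.

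Of the 4 genes of anaphase onset, 3 were negative, with a median of -0.02. Ube2c stood at 169, 194 and 209 CPM in WT and at 153, 224 and 185 CPM in cKO, with a log2 fold change of -0.02 (SE 0.14, 95% interval -0.35 to 0.30). Pttg1, the securin that holds separase inactive, was the lowest of the 49 in counts. It stood at 4.21, 6.13 and 6.25 CPM in WT and at 4.87, 7.90 and 7.78 CPM in cKO. WT 1 and cKO 1 were the 2 lowest libraries for Pttg1 as well, and cKO 2 and cKO 3 lay above all WT libraries. Its log2 fold change was 0.31 (SE 0.24, 95% interval -0.24 to 0.86), with an unadjusted p of 0.233 by edgeR. Cdc20, the activator of the anaphase-promoting complex that the checkpoint restrains, is the member nearest to Ybx1 on chromosome 4, 840 kb away, and its log2 fold change was -0.01.

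The 4 spindle proteins gave 3 negative values and a median of -0.07. Tpx2, which activates Aurora A on the spindle, stood at 244, 290 and 284 CPM in WT and at 204, 313 and 267 CPM in cKO (log2 fold change -0.06, SE 0.15). Nusap1, which links microtubules to chromosomes, stood at 133, 193 and 180 CPM in WT and at 109, 179 and 148 CPM in cKO (log2 fold change -0.22, SE 0.20). All 3 microcephaly genes were negative, with a median of -0.15 and a range of -0.19 to -0.13, and none passed the test. Aspm, a spindle pole protein, stood at 176, 219 and 214 CPM in WT and at 136, 215 and 183 CPM in cKO, with a log2 fold change of -0.19 (SE 0.16, 95% interval -0.57 to 0.19). Wdr62, which recruits spindle pole proteins, stood at 34.5, 30.5 and 34.9 CPM in WT and at 28.1, 34.5 and 27.3 CPM in cKO, with a log2 fold change of -0.15 (SE 0.11, 95% interval -0.42 to 0.11). In Wdr62, unlike Aspm, WT 1 was not the lowest WT library.

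Of the 5 cytokinesis genes, 3 were negative, with a median of -0.0046. Ect2, the exchange factor that activates RhoA at the cleavage site, stood at 110, 146 and 137 CPM in WT and at 96.2, 139 and 124 CPM in cKO (log2 fold change -0.13, SE 0.15). Racgap1, its partner in the central spindle, stood at 231, 253 and 254 CPM in WT and at 200, 284 and 255 CPM in cKO (log2 fold change 0.00091, SE 0.13). Both transcription factors that act on G2/M promoters were near 0. Foxm1 stood at 194, 180 and 197 CPM in WT and at 168, 230 and 172 CPM in cKO, with a log2 fold change of -0.0027 (SE 0.12, 95% interval -0.29 to 0.28). Mybl2, which encodes B-Myb, stood at 48.4, 55.7 and 56.2 CPM in WT and at 40.9, 64.4 and 48.6 CPM in cKO (log2 fold change -0.06, SE 0.16).

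**Figure D2:**
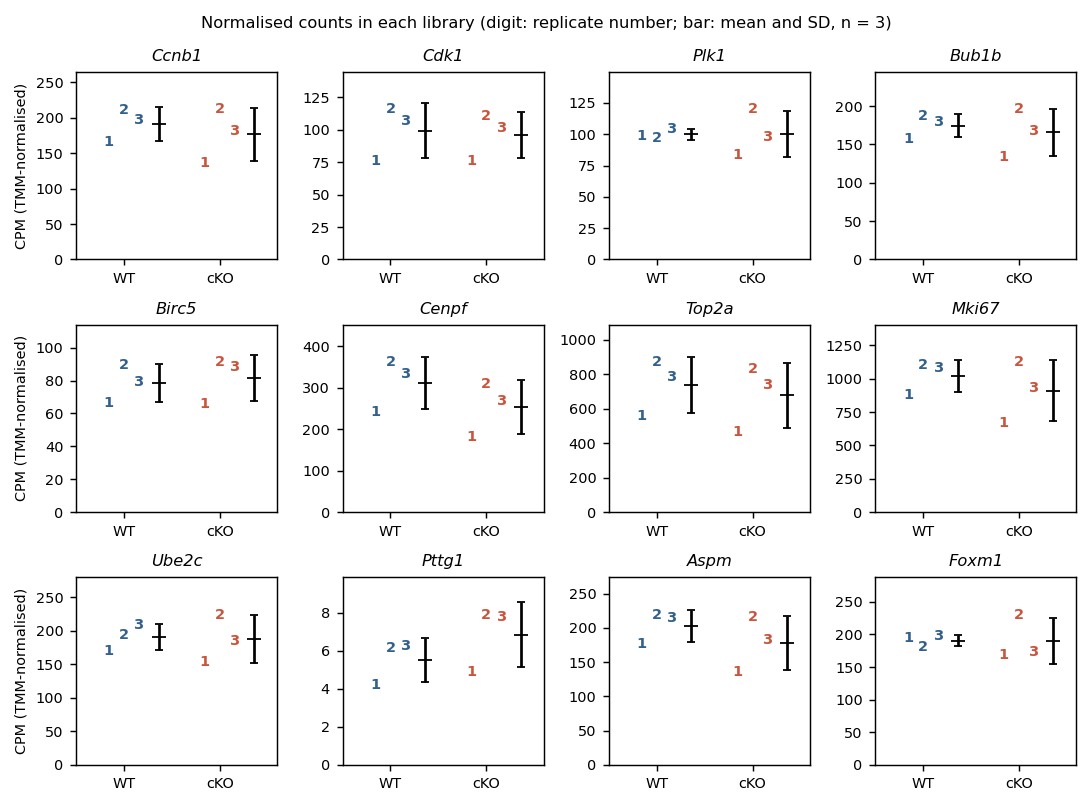
TMM-normalised CPM of 12 of the genes in each library (digits give the replicate number), with the mean and SD of 3 libraries per genotype as a bar. The ranges of WT and cKO overlap in every panel, and replicate 1 is the lowest of its genotype in every panel, except in WT for Plk1 and Foxm1.

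Levels per transcript length differed widely among the 49 genes. Mean TPM over the 6 libraries ran from 13.6 for Wdr62 to 607 for Ube2c. Top2a (300 TPM), Mki67 (218 TPM), Ncapd2 (214 TPM) and Ccna2 (202 TPM) followed Ube2c. At the low end, Cit, a kinase of the midbody, stood at 16.8 TPM and Pttg1 at 26.7 TPM. The 49 genes summed to 5198, 5989 and 5906 TPM in WT 1, 2 and 3 and to 4546, 6312 and 5612 TPM in cKO 1, 2 and 3. The lowest and the highest sums were thus both cKO libraries, with the WT libraries between them.

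The 49 genes rose and fell together from library to library, and the library pattern was larger than the difference between genotypes. Each gene was set against its mean over the 6 libraries on the log2 scale. The median over the 49 genes was -0.16 in WT 1, 0.15 in WT 2, 0.11 in WT 3, -0.33 in cKO 1, 0.22 in cKO 2 and -0.0021 in cKO 3. The medians over all tested genes lay between -0.0094 and 0.0069 in the same libraries. All 49 genes were below their mean in cKO 1 and all 49 were above it in cKO 2. cKO 1 was the lowest of the 6 libraries for 43 of the 49 genes, against 20.0% of all genes, and cKO 2 was the highest cKO library for 49 of 49, against 34.7%. WT 1 was the lowest WT library for 43 of the 49, against 40.4% of all genes. WT 1 and cKO 1 were the 2 lowest of the 6 libraries for 41 of the 49 (83.7%), against 20.0% of all genes.

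Within WT, WT 1 held a median of 80.9% of the mean of WT 2 and WT 3, from 65.4% for Spc25 to 108% for Cit. Within cKO, cKO 1 held a median of 73.0% of the mean of cKO 2 and cKO 3, from 59.4% for Top2a to 91.1% for Wdr62. The genotype difference, at a median of -0.06 on the log2 scale, was smaller than either. The highest library was cKO 2 for 29 genes, WT 2 for 18 and WT 3 for 2. The study's text speaks of 3 batches without saying which library belongs to which, so no value within batches could be given.

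**Figure D3:**
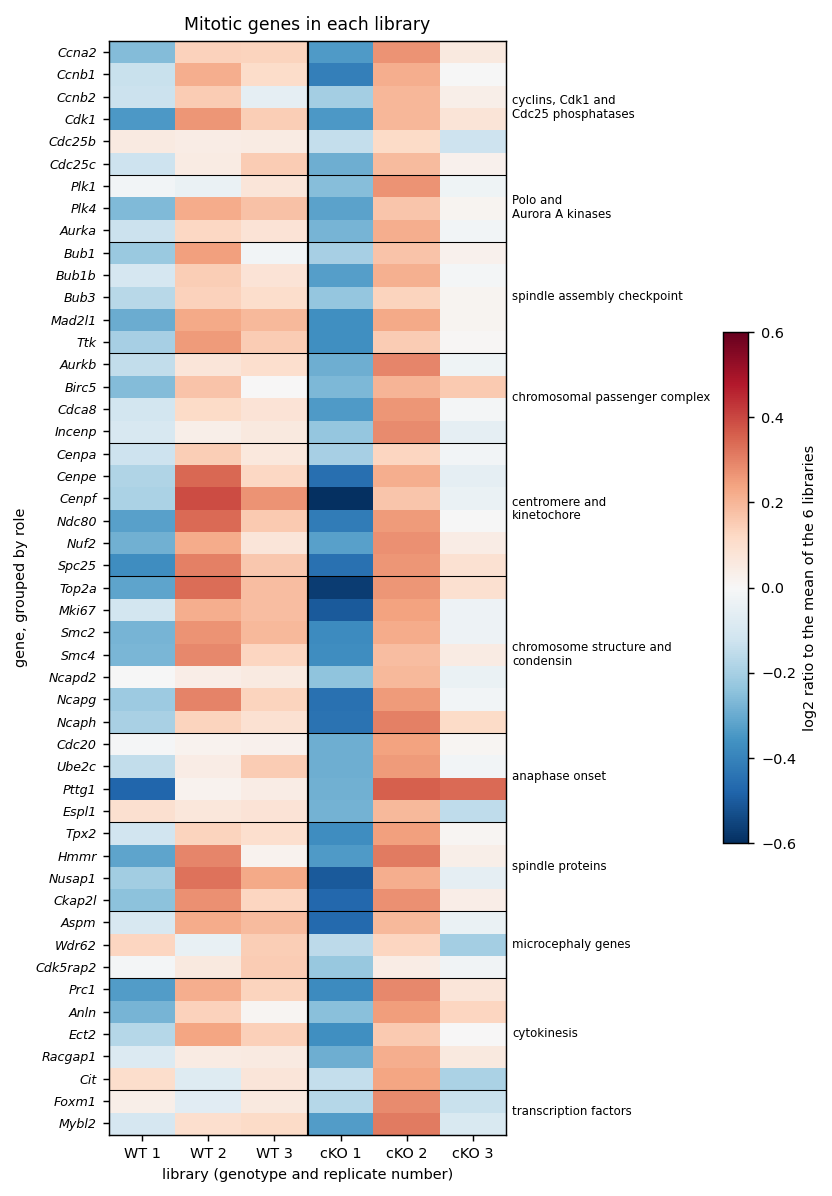
Log2 ratio of each of the 49 genes (rows, grouped by role) to its own mean over the 6 libraries (columns); blue is below the mean and red above. The columns WT 1 and cKO 1 are mostly blue and cKO 2 is red throughout, with median ratios of -0.16, -0.33 and 0.22.

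Other cell cycle genes shared this library pattern, and neuron markers had the opposite one. Of 48 genes of DNA replication and S phase, WT 1 and cKO 1 were the 2 lowest libraries in 45. Of 120 other mitotic genes, chosen from complexes not covered by the 49, this was so in 77, and of 15 radial glia genes in 9. For 16 cortical neuron genes it was so in 0, and instead WT 1 and cKO 1 were the 2 highest libraries in 13 of the 16 (all genes 20.0%). For 10 intermediate progenitor genes, WT 1 and cKO 1 were the 2 highest in 5. The neuron genes summed to 7202, 6117 and 6685 CPM in WT 1, 2 and 3 and to 7437, 5918 and 5844 CPM in cKO 1, 2 and 3. The mitotic genes summed to 7043, 8969 and 8596 CPM in WT and to 6063, 9202 and 7882 CPM in cKO. The part of cell composition or of dissection in this pattern was not tested.

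Individual markers lay along the same pattern to different degrees. Pax6, of radial glia, stood at 160, 190 and 189 CPM in WT and at 170, 226 and 175 CPM in cKO, so the replicate 1 library was again the lowest of each genotype. Eomes, which encodes Tbr2 of intermediate progenitors, stood at 622, 494 and 521 CPM in WT and at 558, 503 and 424 CPM in cKO. Tbr1, of early cortical neurons, stood at 555, 425 and 506 CPM in WT and at 545, 464 and 412 CPM in cKO. For Eomes and Tbr1 the replicate 1 libraries were the 2 highest of the 6.

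Transcript GC content moved with part of the library pattern. The 49 genes had a median transcript GC content of 46.3% (34.8 to 56.3%), against 49.8% for all genes. The difference of WT 1 from WT 2 and WT 3 correlated with GC content across the 49 genes, with a Spearman rho of 0.81, and across the 12971 tested genes with a GC value, with a rho of 0.39. For the difference of cKO 1 from cKO 2 and cKO 3, rho was 0.57 across the 49 genes and 0.16 across all. For the genotype difference, rho was 0.26 and 0.08. These are descriptions across genes of the same 6 libraries, and genes are not independent replicates. In the 13 mitotic genes with the lowest GC content the median WT 1 difference was -0.47, against -0.11 for the other genes in that range of GC content. In the 12 with the highest GC content it was -0.03, against 0.07. The cKO 1 difference of the mitotic genes was below that of other genes at both ends, at -0.49 against -0.03 for the lowest and at -0.33 against 0.02 for the highest. In the fit corrected for GC content, 42 of the 49 genes had a negative log2 fold change and the median was -0.07.

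**Figure D4:**
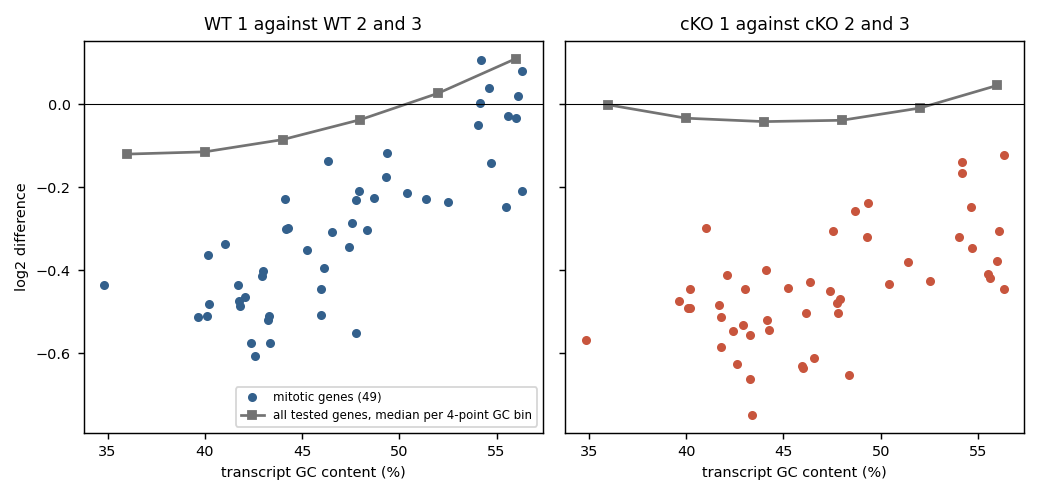
Log2 difference of the replicate 1 library from the mean of the other 2 libraries of its genotype, against transcript GC content (%), for the 49 genes (points) and as medians over all tested genes in bins of GC content (line). In WT (left) the points climb with GC content (rho 0.81), and in cKO (right) all 49 points lie below 0.

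The members' median and the number of negative genes moved when single libraries were left out, and the median turned positive in 1 of these 6 fits, that without cKO 1. Without cKO 1, only 8 of the 49 genes were negative and the median was 0.09. Without cKO 2, 48 were negative and the median was -0.19. Without WT 1, 47 were negative with a median of -0.13, and without WT 2, 25 were negative with a median of -0.0045. Without WT 3 there were 32 with a median of -0.02. Leaving out cKO 3, the library with skin and mesenchyme transcripts, gave 39 negative genes and a median of -0.06, close to the values with it. No member passed an adjusted p of 0.05 in any of these fits. At an unadjusted p under 0.05, Cdc25b, Espl1 and Wdr62 were lower without cKO 2, where 1.81% of all 13511 genes tested were. Without cKO 1, Pttg1 alone of the 49 was higher at that threshold, against 4.23% of all 13488 genes tested. With both WT 2 and cKO 3 left out, 29 of the 49 were negative and the median was -0.0055.

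**Figure D5:**
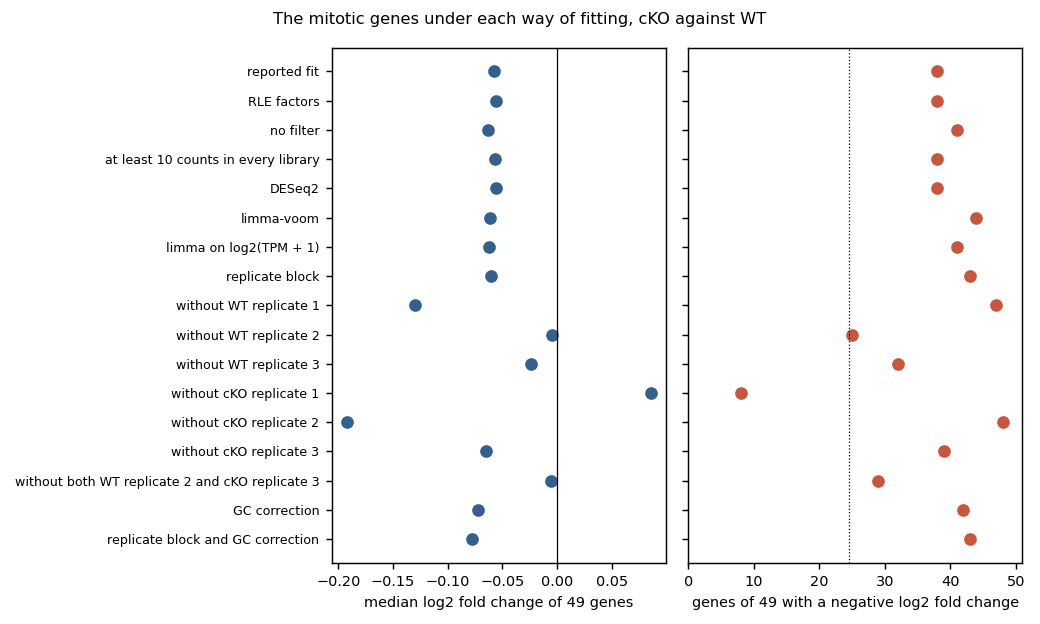
Median log2 fold change of the 49 genes (left) and number of the 49 with a negative value (right; dotted line at equal numbers) under the reported fit and 16 alternatives. Changes of test or scaling leave the median between -0.08 and -0.06, whereas leaving out single libraries moves it from -0.19 to 0.09.

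Further genes of the same processes gave little more than the background. Of the 120 other mitotic genes, 79 were negative and 41 positive, with a median of -0.04. None passed the adjusted test, and 3 had an unadjusted p under 0.05, all lower, against 1.81% of all genes. Anapc5, a subunit of the anaphase-promoting complex, stood at 362, 395 and 400 CPM in WT and at 310, 345 and 341 CPM in cKO (log2 fold change -0.22, SE 0.08). Cenpc1, which anchors the inner kinetochore, stood at 94.1, 108 and 106 CPM in WT and at 83.4, 93.2 and 90.6 CPM in cKO (log2 fold change -0.21, SE 0.08). Cenpj, a centriole protein mutated in microcephaly, stood at 54.1, 57.1 and 55.4 CPM in WT and at 42.7, 51.2 and 47.5 CPM in cKO (log2 fold change -0.24, SE 0.08). In these 3 genes the genotypes did not overlap, but the adjusted p of each by edgeR was 0.99995. They were the only ones of the 120 with separate genotypes and cKO lower, against 4.83% of all genes. Separate genotypes with cKO higher were found in 1 of the 120, against 4.21% of all genes. In 77 of the 120, WT 1 and cKO 1 were the 2 lowest libraries, so the genotypes could not separate there. Of 23 regulators of cell cycle transcription, among them the subunits of the DREAM and MuvB complexes, 15 were negative, with a median of -0.04. E2f3, which drives entry into S phase, reached an unadjusted p of 0.036 by edgeR, with a log2 fold change of -0.21 (SE 0.08). Of the 48 S phase genes, 31 were negative, with a median of -0.03, and 0 had an unadjusted p under 0.05.

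Markers of interneurons and of red blood cells had mostly positive log2 fold changes. Of 12 interneuron genes tested out of 16, 11 were positive, with a median log2 fold change of 0.61. Among all genes, 49.2% were negative. By edgeR, 6 of the 12 were higher at an unadjusted p under 0.05, against 1.75% of all genes. The 15 genes of this list in the deposited table summed to 179 to 252 CPM in WT and to 262 to 281 CPM in cKO. Of Dlx6os1 and Lhx8, 1 was absent from that table and the other was at 0 in at least 1 library. All 10 erythroid genes tested out of 15 were positive, with a median of 0.20, but 0 had an unadjusted p under 0.05 by edgeR. The 14 in the table summed to 646 to 884 CPM in WT and to 694 to 1125 CPM in cKO. These sums were highest in WT 1 and cKO 1, and Ahsp was absent from the table. The 10 endothelial genes had a median of 0.10 and the 9 microglia genes tested out of 10 a median of 0.15, with none at an unadjusted p under 0.05 in either list. Whether these cells bear on the values of the mitotic genes was not tested.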

How the data were processed

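RNA-seq libraries of E13.5 mouse cortex (3 WT, 3 cKO) were read from a table of 17348 genes. The authors deposited estimated counts per gene and library, of the kind RSEM gives, not normalised for depth. The authors also deposited TPM, used for levels per length, and FPKM and group averages, which were not used. Columns named Ctrl were taken as the libraries labelled WT. The submitters' processing notes name HISAT2 2.2.1, Bowtie2 2.4.5, RSEM 1.3.1, GRCm38 and mm10 without roles; the gene annotation and the strand setting are not given in the sources used here, so reads of overlapping genes cannot be told apart. Reads not assigned to the right transcript by the estimate would shift counts between similar genes.

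The estimated counts (10.9% of values not whole) were rounded. Genes passing filterByExpr (minimum count 10, total 15; 13340 genes) were fitted with edgeR 4.0.16 (R 4.3.3): TMM factors (0.987 to 1.03), glmQLFit and glmQLFTest on genotype, and Benjamini-Hochberg adjustment at 0.05. The SE is the log2 fold change over the square root of F. Depth was 15907486 to 16282921 counts per library. No pair of libraries shared more than 1.66% of equal counts, so none was counted as a duplicate. The fit was tested on simulated data. Member coordinates and promoters come from RefSeq on GRCm38.p6, and GC content from the longest GENCODE transcript of each symbol (97.2% of tested genes matched).

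Alternatives were RLE factors, other count filters, DESeq2 1.42.0, limma 3.58.1 (voom, and log2(TPM + 1)), a replicate block and libraries left out. The GC corrections (loess, span 0.3) were chosen after seeing the data. The members and lists were chosen with earlier results of these data known. Genes named were Ybx1, per role the member of highest TPM and the member of largest change, 9 set members (Ccnb1, Cdk1, Plk1, Top2a, Mki67, Bub1b, Aspm, Wdr62, Foxm1), of each other list at most the gene with the lowest p, and Pax6, Eomes, Tbr1, Krt5 and Col3a1. Other members named singly were chosen after their values were seen.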

Additional observations from a re-analysis of the deposited data

How the results depend on the processing

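No mitotic gene passed an adjusted p of 0.05 under any of the 16 alternatives, and the lowest adjusted p of a member was 0.417, with the replicate block. Depth and 3 libraries per genotype limit each gene to the intervals given. Over all genes, calls at an adjusted p under 0.05 were 2 lower and 2 higher by DESeq2, 1 and 1 with the replicate block, without both WT 2 and cKO 3, and with GC correction, 1 lower and 2 higher with replicate block and GC correction, and 0 to 1 in each direction when single libraries were left out. At an unadjusted p under 0.05, lower calls numbered 614 with the replicate block, 141 without WT 2 and cKO 3, 718 with replicate block and GC correction, and 118 to 482 with single libraries left out. Higher calls numbered 390 without a filter, 148 by DESeq2, 476 with the replicate block, 105 without WT 2 and cKO 3, 367 with replicate block and GC correction, and 121 to 571 with single libraries left out. Whether the replicate numbers pair the libraries is not given. Deviations from the genotype mean correlated between WT and cKO at 0.41, 0.31 and -0.02 for replicates 1, 2 and 3. With the replicate block, 8 members were lower at an unadjusted p under 0.05 (Ttk, Cenpe, Cenpf, Mki67, Ncapg, Nusap1, Aspm and Ect2; 16.3% of the 49 against 4.60% of all genes), and 5 with replicate block and GC correction (Cenpe, Cenpf, Espl1, Nusap1 and Aspm; 10.2% against 5.38%). Ybx1 had an adjusted p of 0.038 and 0.0056 in these 2 fits. Leaving out single libraries gave 0 to 3 such members lower and 0 to 1 higher, and 8 to 48 with a negative log2 fold change. Motif shares before the start site alone were 33.3% for TTTGAA (tested genes 12.8%) and 50% for either element (20.7%).

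Signs changed in 18 of the 23 named members, in 56 of 368 values, none past a threshold, and the cause was not tested. Some of these members were not close to 0 in the reported fit, among them Mki67 (-0.17) and Ttk (-0.14). The log2 fold changes with the other sign were Ccna2 -0.0042, Racgap1 -0.0045 (without a filter), Ccna2 -0.0084, Plk1 -0.010, Racgap1 -0.013 (limma-voom), Ccna2 -0.0031, Plk1 -0.0057, Racgap1 -0.0089 (limma on log2(TPM + 1)), Ccna2 -0.0079, Plk1 -0.0079, Racgap1 -0.012 (the replicate block), Ccna2 -0.013, Plk1 -0.032, Racgap1 -0.015 (GC correction), Ccna2 -0.023, Plk1 -0.048, Racgap1 -0.027 (replicate block with GC correction), Cdk1 0.030, Spc25 0.033, Racgap1 -0.0021, Foxm1 0.026, Mybl2 0.011 (without WT 2 and cKO 3). Over the fits that leave out 1 library, the log2 fold change ranged as follows: Ccna2 -0.14 to 0.16, Ccnb1 -0.27 to 0.048, Cdk1 -0.21 to 0.10, Plk1 -0.14 to 0.13, Plk4 -0.23 to 0.041, Bub1b -0.21 to 0.065, Bub3 -0.14 to 0.051, Ttk -0.26 to 0.0059, Birc5 -0.041 to 0.21, Spc25 -0.23 to 0.13, Top2a -0.29 to 0.10, Mki67 -0.35 to 0.015, Ube2c -0.17 to 0.11, Tpx2 -0.21 to 0.10, Ect2 -0.25 to 0.0092, Racgap1 -0.12 to 0.14, Foxm1 -0.17 to 0.086, Mybl2 -0.26 to 0.087.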
